A study of Mus musculus with 12 samples.

Results

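The Pax genes encode transcription factors that bind DNA through a paired domain, some of them together with a full or partial homeodomain. They fall into subgroups by sequence: Pax1 and Pax9, known for the sclerotome, the pharyngeal pouches and the teeth; Pax2, Pax5 and Pax8, known for kidney, inner ear, B cells and thyroid; Pax3 and Pax7, known for dermomyotome, neural crest and muscle precursors; and Pax4 and Pax6, known for the endocrine pancreas and the eye. Accessible chromatin at such genes marks promoters and candidate regulatory elements, and it does not by itself show transcription.

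The Pax factor loci were taken as the 9 genes Pax1 to Pax9 of the GENCODE M21 annotation (GRCm38), each extended by 20 kb on both sides, and every ATAC-seq peak that overlapped these windows was a member. This gave 61 of the 91,354 peaks of the BGI peak set and 65 of the 87,027 peaks of the Illumina peak set. All of them were 502 bp wide as written in the deposited tables, so that levels can be compared between peaks. Levels are in CPM, the counts of a peak scaled to the total reads of the sample in the peak set. On the BGI set the members were 4 peaks at Pax1, 10 at Pax2, 5 at Pax3, 5 at Pax4, 11 at Pax5, 8 at Pax6, 4 at Pax7, 6 at Pax8 and 8 at Pax9, and on the Illumina set there were 4, 8, 7, 5, 13, 10, 7, 5 and 6. Pax4 had no peak inside its gene body on either set, and all 5 peaks of its window lay in the flanks.

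Omni-ATAC-seq inserts sequencing adapters into open DNA with a transposase. The cells came from mice: embryonic fibroblasts (MEFs) from a THY1+ gate and embryonic stem cells (mESCs) from a THY1-, SSEA1+ and EPCAM+ gate, all of a C57/Bl6 background and with no treatment named in the labels. All 6 libraries (MEF 1, 2 and 4, mESC 1, 3 and 5) went on both a DNBSEQ-G400 from BGI and a HiSeqX10 from Illumina, which gave 12 samples in 4 groups of 3. The 2 platforms therefore repeat the same libraries and are not independent evidence for a difference between cell types. The BGI samples held 15,860,985 to 21,662,775 reads in the BGI peak set and the Illumina samples 15,996,202 to 21,441,767 reads in theirs. In bulk samples of this kind, more cells with an open site and a more open site in each cell cannot be told apart. Promoters of 8 of 9 mESC markers were more accessible in mESCs and those of 8 of 9 MEF markers in MEFs, with Klf2 and Pdgfra as the exceptions that did not pass the test. Differences between cell types are given as log2 fold changes of mESCs over MEFs with their standard error (SE), and a peak was called if its edgeR quasi-likelihood p-value, adjusted over all peaks by Benjamini-Hochberg, was below 0.05.

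The sequences of 6 peaks are shown because each had the smallest p between the cell types at its gene, at the 6 genes with the largest such differences: 2 that were open in MEFs, in introns of Pax8 and Pax3, and 4 that were open in mESCs, downstream of Pax2, in introns of Pax5 and Pax7, and at an internal start of Pax6. Each is the middle 300 bases of the peak on the plus strand of GRCm38, 5′ to 3′, at chr2:24453301-24453600 (Pax8), chr1:78129272-78129571 (Pax3), chr19:44842703-44843002 (Pax2), chr4:44543912-44544211 (Pax5), chr2:105677702-105678001 (Pax6) and chr4:139767822-139768121 (Pax7). Capitals mark matches, on either strand, to any of 9 short motifs named after the factors known to bind them: AP-1 (TGANTCA), TEAD (GGAATG), the POU octamer (ATGCAAAT), KLF (GGGTGTGG), the E-box of ZEB and SNAI factors (CACCTG), YY1 (GATGGCG), part of a REST site (TTCAGCACC), SOX (ACAAAG) and ESRRB (AAGGTCA).
Pax8: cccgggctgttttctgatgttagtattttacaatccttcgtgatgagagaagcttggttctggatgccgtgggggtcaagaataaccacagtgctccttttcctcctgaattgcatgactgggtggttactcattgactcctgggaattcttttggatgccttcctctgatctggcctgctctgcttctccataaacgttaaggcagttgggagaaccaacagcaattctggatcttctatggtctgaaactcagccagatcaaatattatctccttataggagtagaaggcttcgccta
Pax3: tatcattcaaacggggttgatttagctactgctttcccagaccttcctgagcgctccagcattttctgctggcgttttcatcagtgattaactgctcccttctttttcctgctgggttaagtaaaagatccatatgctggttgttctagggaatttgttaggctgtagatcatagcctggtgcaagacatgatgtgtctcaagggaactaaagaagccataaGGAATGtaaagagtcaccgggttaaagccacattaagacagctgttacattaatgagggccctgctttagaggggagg
Pax2: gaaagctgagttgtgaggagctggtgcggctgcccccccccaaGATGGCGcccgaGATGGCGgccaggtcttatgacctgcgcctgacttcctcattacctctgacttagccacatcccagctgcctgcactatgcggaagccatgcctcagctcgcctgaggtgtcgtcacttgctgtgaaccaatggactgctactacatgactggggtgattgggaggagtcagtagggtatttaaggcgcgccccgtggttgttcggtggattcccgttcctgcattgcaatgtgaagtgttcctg
Pax5: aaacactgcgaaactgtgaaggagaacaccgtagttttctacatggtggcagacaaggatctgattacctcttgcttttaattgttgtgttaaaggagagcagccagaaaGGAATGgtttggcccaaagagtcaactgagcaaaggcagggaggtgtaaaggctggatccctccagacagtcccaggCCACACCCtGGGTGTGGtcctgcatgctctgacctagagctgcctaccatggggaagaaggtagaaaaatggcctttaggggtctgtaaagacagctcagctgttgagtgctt
Pax6: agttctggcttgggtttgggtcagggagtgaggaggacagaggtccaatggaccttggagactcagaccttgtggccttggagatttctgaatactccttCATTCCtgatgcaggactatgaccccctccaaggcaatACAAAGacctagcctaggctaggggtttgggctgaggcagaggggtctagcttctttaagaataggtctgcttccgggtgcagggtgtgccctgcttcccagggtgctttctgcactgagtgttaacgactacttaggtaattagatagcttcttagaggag
Pax7: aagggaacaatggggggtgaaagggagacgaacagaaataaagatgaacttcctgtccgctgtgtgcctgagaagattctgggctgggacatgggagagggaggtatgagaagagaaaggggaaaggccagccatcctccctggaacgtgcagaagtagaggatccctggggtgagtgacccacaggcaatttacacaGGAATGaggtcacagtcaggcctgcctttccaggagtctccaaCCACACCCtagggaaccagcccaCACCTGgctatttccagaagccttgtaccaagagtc
The Pax8 window held none of these motifs. The Pax3 window held a TEAD match at base 223 and the Pax6 window a TEAD match at base 101 and a SOX match at base 139. The Pax2 window held 2 YY1 matches, at bases 44 and 56. The Pax5 window held a TEAD match at base 111 and 2 KLF matches on opposite strands at bases 188 and 197, and the Pax7 window held TEAD, KLF and E-box matches at bases 199, 242 and 265. A match is a run of letters and not a bound site.

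Over the full peaks, the AP-1 letters occurred in 4 of the 61 Pax peaks (6.56%) and in 25.2% of all 91,285 BGI-set peaks on assembled chromosomes. Among peaks called higher in mESCs they were in 3 of 46 Pax peaks (6.52%) against 18.6% of all such peaks. Among those called higher in MEFs they were in 1 of 5 Pax peaks against 35.6% of all such peaks. The motif shares were not matched for GC content or annotation class. The CACCTG E-box was found in 28 Pax peaks (45.9%) against 31.9% of all peaks, and among peaks called higher in mESCs it was found in 22 of 46 Pax peaks (47.8%) against 44.0%. The YY1 letters were in 7 Pax peaks (11.5%) and in 4.57% of all peaks. The other motifs occurred in 21 (TEAD), 17 (SOX), 5 (KLF), 5 (ESRRB), 2 (octamer) and 2 (part of a REST site) of the 61 peaks, against 31.7%, 33.6%, 7.04%, 9.59%, 3.21% and 1.10% of all peaks. No motif contains another, and the YY1 letters were added to the search after the sequences had been seen.

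Most Pax peaks were more accessible in mESCs. On the BGI set 51 of 61 Pax peaks were called, where 84.1% of all peaks were, so the number of calls was near the background. The direction was uneven: 46 Pax peaks (75.4%) were higher in mESCs, against 40.9% of all peaks, and 5 were higher in MEFs, against 43.2% of all peaks. Of these 5 calls 3 were left without mESC 1, and 3 with the down-sampled depths as library sizes, and in both cases those of Pax6 and Pax9 were lost. With windows of 50 kb, a larger share of the peaks was higher in MEFs and a smaller share higher in mESCs, as given at the end. All Pax peaks of both sets passed the filter on low counts. The median log2 fold change of the 61 peaks was 1.18, and that of all peaks was -0.078. The 3 samples of each cell type did not overlap at 52 of the 61 peaks, against 85.1% of all peaks. On the Illumina set 56 of 65 Pax peaks were called (84.5% of all peaks), 50 of them (76.9%) higher in mESCs (42.1% of all peaks) and 6 higher in MEFs (42.4% of all peaks), with a median of 1.10. In MEFs the median Pax peak held 4.40 CPM and in mESCs 8.995 CPM, against 7.26 and 7.67 CPM for the median of all peaks. The GC content of the Pax peaks, at a median of 57.0%, was above the 51.0% of all peaks.

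**Figure D1:**
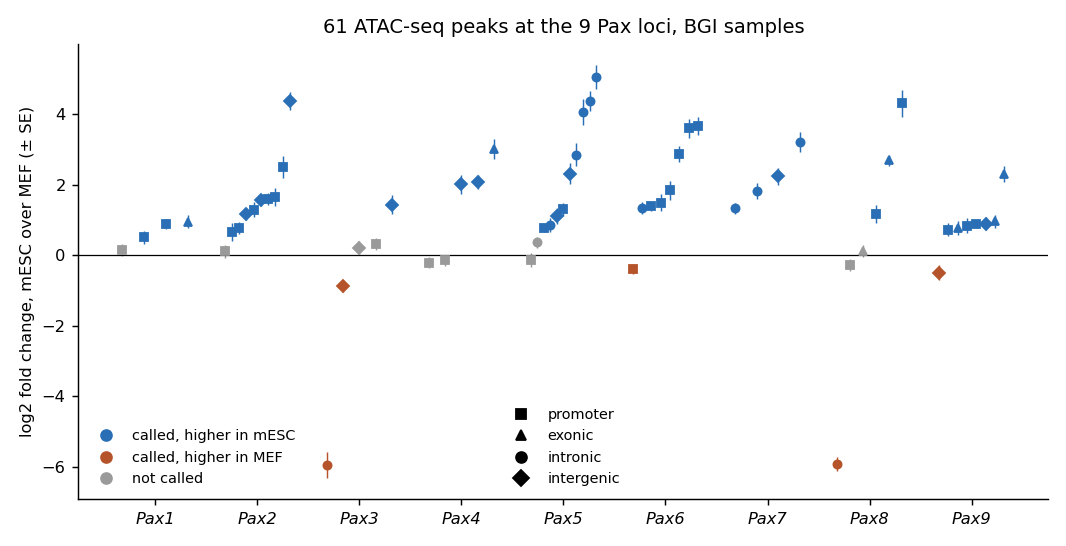
Log2 fold change of mESCs over MEFs (vertical axis, with SE) for each of the 61 BGI-set peaks, by gene, with the marker giving the annotation class and the colour the call. All peaks of Pax1, Pax2 and Pax7 lie above 0, and 2 intronic peaks, at Pax3 and Pax8, lie near -6.

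On the BGI set the windows held from 2.93 peaks per 100 kb at Pax7 to 13.1 at Pax9, and on the Illumina set from 5.13 at Pax7 to 14.6 at Pax6, where the medians of all protein-coding genes were 6.12 and 5.85. By annotation, 29 of the 61 peaks lay within 1 kb of a transcription start site (TSS) of any gene, 7 in exons, 12 in introns and 13 between genes. The promoter share of 47.5% compared with 32.6% of all peaks, and the intronic share of 19.7% with 30.7%. Among promoter peaks 21 of 29 (72.4%) were higher in mESCs, against 31.3% of all promoter peaks of the set, and among intronic peaks 9 of 12 (75.0%) were, against 42.9% of all intronic peaks. By overlap of at least 50% with the deposited peak lists of each cell type on BGI, 40 Pax peaks (65.6%) were on the mESC list alone, 16 (26.2%) on both lists and 5 (8.197%) on the MEF list alone, while these shares were 36.4%, 30.8% and 32.8% over the whole set. The 5 peaks whose nearest protein-coding TSS belonged to a neighbour (Arf5, Gcc1, Fscn3 or Psd4) had a median log2 fold change of -0.15, and the 56 peaks nearest to a Pax gene had a median of 1.30.

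The peak calls of the individual samples, made by the authors at a loose threshold, were counted in the same windows. In BGI samples the 9 windows held 142 to 175 called summits for MEFs, or 0.0629% to 0.0760% of all summits of the sample. For mESCs they held 225 to 243, or 0.0951% to 0.0978%. With a −log10 p of at least 10, 56 to 69 summits remained in MEFs, or 0.0482% to 0.0593% of all such summits, and 134 to 135 in mESCs, or 0.103% to 0.108%. The Illumina samples gave 62 to 64 and 135 to 142 at this threshold. The MEF samples had been down-sampled to 60 M reads and the mESC samples to 45 M, and the part of depth in these numbers was not tested. At Pax6 alone, BGI samples of MEFs held 3 to 7 such summits and those of mESCs 24 to 28, whereas at Pax3 these ranges were 6 to 9 and 8 to 9.

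Pax1 differed modestly between the cell types. The promoter peak of Pax1 with the highest mean over both cell types (chr2:147362268-147362769), which also lies at the start of the antisense transcript AI646519, measured 8.63, 8.55 and 8.71 CPM in MEFs and 17.5, 17.1 and 15.4 CPM in mESCs. The mESC samples were all higher, by 0.88 ± 0.14 (SE) on the log2 scale (edgeR adjusted p = 1.30e-05). It was also the Pax1 peak with the smallest p among those called on both platforms. Of the 4 Pax1 peaks on the BGI set, 3 were higher in mESCs and none was higher in MEFs, and the fold changes spanned 0.15 to 0.95.

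The Pax9 promoter (chr12:56695354-56695855) was among the more open Pax promoters in both cell types. Its values were 18.4, 16.8 and 16.5 CPM in MEFs and 30.2, 34.1 and 35.0 CPM in mESCs, a log2 fold change of 0.88 ± 0.11 (edgeR adjusted p = 6.63e-07). An exonic Pax9 peak (chr12:56699820-56700321) differed more, with 1.66, 2.09 and 2.29 CPM in MEFs and 10.2, 11.9 and 9.19 CPM in mESCs (2.31 ± 0.22, edgeR adjusted p = 2.54e-08). The groups did not overlap at either peak. An intergenic peak 10 kb upstream was higher in MEFs by a small margin on BGI (log2 fold change -0.50, edgeR adjusted p = 0.0390) and was not called on Illumina (-0.38, edgeR adjusted p = 0.117). This call was lost in 7 of 12 alternatives on BGI: RLE scaling, down-sampled depths as library sizes, the Illumina samples, and leaving out MEF 1, MEF 2, mESC 1 or mESC 3, with adjusted p up to 0.195. The other 7 Pax9 peaks were higher in mESCs.

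At Pax2, a regulator of kidney and optic stalk development, 9 of 10 peaks were higher in mESCs on the BGI set and none was lower. The promoter peak (chr19:44756467-44756968) held 5.68, 7.60 and 7.22 CPM in MEFs and 11.5, 10.9 and 14.2 CPM in mESCs, a log2 fold change of 0.77 ± 0.17 (edgeR adjusted p = 4.83e-04). The strongest difference lay beyond the 3′ end of the gene (chr19:44842602-44843103), in the peak whose sequence with 2 YY1 matches is printed above. There the MEF samples gave 0.739, 0.696 and 0.747 CPM and the mESC samples 14.0, 19.9 and 13.6 CPM. The mean was 21.8-fold higher in mESCs, and the log2 fold change was 4.37 ± 0.25 (edgeR adjusted p = 3.34e-11), with 4.57 ± 0.31 in the Illumina samples (edgeR adjusted p = 3.04e-10). No summit was called there in any of the 3 BGI samples of MEFs. Peaks at the starts of the microRNA Mir6405 (2.50 ± 0.32) and of the non-coding 1700039E22Rik (1.597 ± 0.174 and 1.64 ± 0.25), inside or at the end of Pax2, were also higher in mESCs.

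Pax5, known for B cell identity, had its largest differences in the introns near its 3′ end. A peak at chr4:44543811-44544312, whose printed sequence carries the facing KLF matches, measured 0.462, 0.348 and 0.647 CPM in MEFs and 11.2, 10.9 and 9.82 CPM in mESCs. The MEF values were 10, 7 and 13 reads. The log2 fold change was 4.37 ± 0.27 (edgeR adjusted p = 1.26e-10), and the Illumina samples gave 4.54 ± 0.29 (edgeR adjusted p = 1.25e-10). A neighbouring peak at chr4:44549007-44549508 had 0.323, 0.199 and 0.149 CPM in MEFs, which were 7, 4 and 3 reads, and 9.39, 6.80 and 8.01 CPM in mESCs (5.05 ± 0.35, edgeR adjusted p = 4.53e-10). A further intronic peak, at chr4:44555549-44556050, gave 4.07 ± 0.37 (edgeR adjusted p = 1.26e-08), with 4, 12 and 6 reads in MEFs. These peaks were not called as summits in any BGI sample of MEFs, whereas another intronic peak 2 kb away (chr4:44557743-44558244) had 10.8 CPM in MEFs and 14.5 CPM in mESCs and missed the threshold (0.36, edgeR adjusted p = 0.0506).

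The Pax5 promoter (chr4:44704328-44704829) was the most open Pax promoter. It held 25.0, 25.0 and 20.9 CPM in MEFs and 40.2, 47.4 and 39.8 CPM in mESCs, so that it was open in both cell types and higher in mESCs by 0.78 ± 0.11 on the log2 scale (edgeR adjusted p = 4.28e-06). Among the highest promoter peaks of 15,126 protein-coding genes it stood at percentile 50.5 in MEFs and 82.9 in mESCs. The peak at the start of the antisense RNA gene Gm12462 in Pax5 was not called on BGI (-0.14 ± 0.20, edgeR adjusted p = 0.522).

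Pax8, known for thyroid and kidney, held peaks that differed strongly in both directions. An intronic peak (chr2:24453200-24453701), also within the non-coding gene Gm13415, had 35.6, 35.7 and 36.0 CPM in MEFs, the highest level of any Pax peak in these cells, and 0.757, 0.769 and 0.311 CPM in mESCs. The counts behind these values were 772, 719 and 724 reads in MEFs and 12, 13 and 5 reads in mESCs. The mean was 58.5-fold higher in MEFs, a log2 fold change of -5.92 ± 0.20 (edgeR adjusted p = 1.41e-13), and on Illumina it was -6.47 ± 0.21 (edgeR adjusted p = 9.27e-14). In the authors' peak calls it had a fold enrichment of 46.1 to 51.0 and a −log10 p of 263.1 to 298.2 in the BGI samples of MEFs, and no summit in those of mESCs. It carried no match to the 9 motifs over its full width.

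A Pax8 exonic peak 7 kb upstream of it (chr2:24460689-24461190) moved the other way, with 2.72, 3.08 and 2.99 CPM in MEFs and 18.6, 20.6 and 20.003 CPM in mESCs (2.68 ± 0.16, edgeR adjusted p = 6.80e-11). A peak at the start of Gm13415 (chr2:24443165-24443666), a member on the BGI set only, had 0.0923, 0.447 and 0.498 CPM in MEFs (2, 9 and 10 reads) and 7.75, 6.45 and 7.39 CPM in mESCs. It was higher in mESCs by 4.31 ± 0.38 (edgeR adjusted p = 8.81e-09). The Pax8 promoter itself (chr2:24474110-24474611) was weak, with 4.39, 2.14 and 3.63 CPM in MEFs and 9.27, 8.22 and 6.65 CPM in mESCs (1.18 ± 0.25, edgeR adjusted p = 3.46e-04). Among genes with a promoter peak it ranked at percentile 4.78 in MEFs and 9.76 in mESCs. The promoter of the neighbour Psd4 was not called on BGI (-0.28 ± 0.16, edgeR adjusted p = 0.115) and was higher in MEFs on Illumina (-0.54 ± 0.15, edgeR adjusted p = 2.49e-03).

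**Figure D2:**
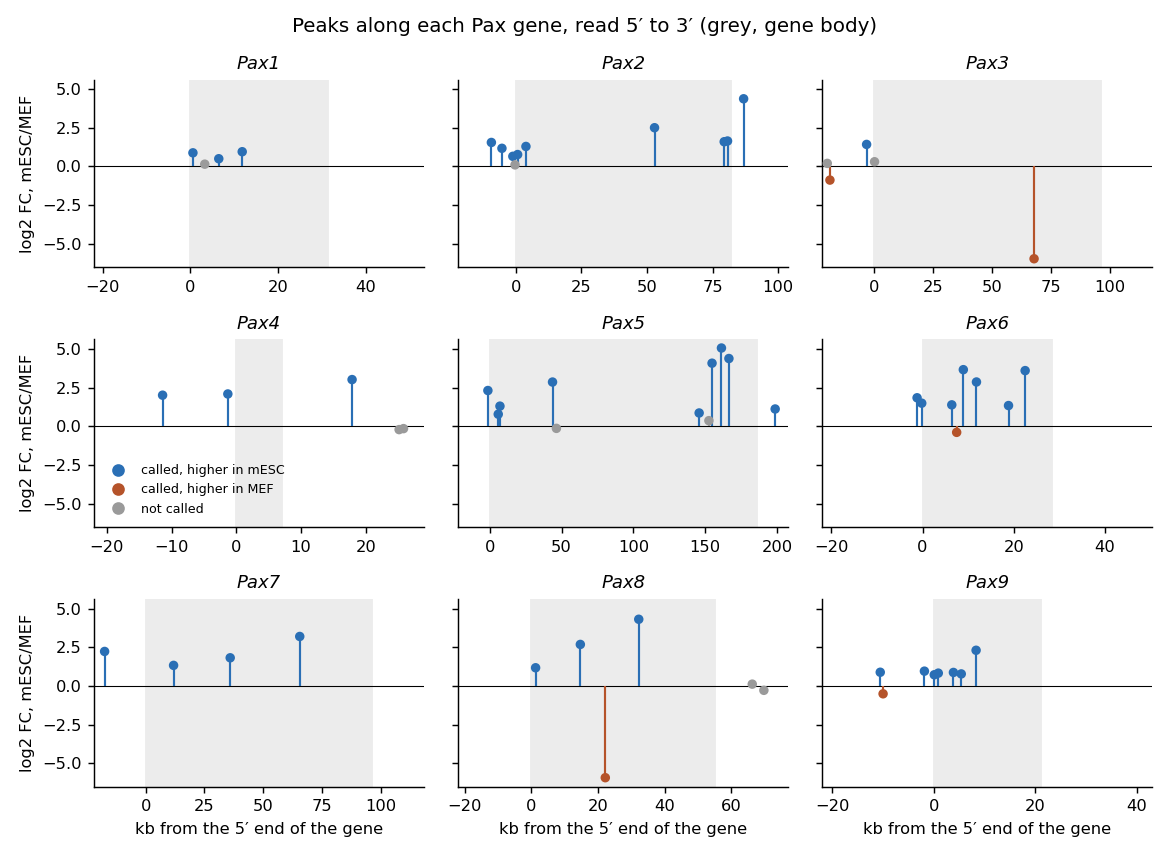
Log2 fold change of mESCs over MEFs for BGI-set peaks along each gene, with distance from the 5′ end of the gene in kb on the horizontal axis and the gene body in grey. At Pax8 a MEF-high peak of -5.92 lies between mESC-high peaks of 2.68 and 4.31, and at Pax5 the largest values sit near the 3′ end.

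Pax3, which acts in dermomyotome and neural crest, was the gene with the fewest mESC-high peaks on the BGI set, with 1 of 5. An intronic peak (chr1:78129171-78129672) held 8.72, 7.70 and 10.3 CPM in MEFs and 0.126, 0.0591 and 0.248 CPM in mESCs, which were 2, 1 and 4 reads. The mean was 61.5-fold higher in MEFs (-5.95 ± 0.37, edgeR adjusted p = 1.22e-10), and the Illumina value was -5.85 ± 0.45 (edgeR adjusted p = 1.28e-09). An intergenic peak 19 kb upstream (chr1:78215658-78216159) was also higher in MEFs, with 11.7, 11.4 and 14.5 CPM against 7.19, 6.68 and 7.52 CPM in mESCs (-0.88 ± 0.16, edgeR adjusted p = 6.68e-05). These are the only Pax3 peaks called higher in MEFs on BGI, and their groups did not overlap.

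The promoter of Pax3 (chr1:78196761-78197262) was not called, with 7.02, 7.01 and 6.82 CPM in MEFs and 9.33, 9.58 and 8.08 CPM in mESCs (0.31 ± 0.17, edgeR adjusted p = 0.105). It passed the test when the down-sampled depths served as library sizes (0.45, edgeR adjusted p = 0.0243). The Illumina set held 2 peaks at this promoter. One (chr1:78196422-78196923) was called higher in mESCs, with 5.597, 6.71 and 4.92 CPM in MEFs and 7.94, 10.2 and 8.93 CPM in mESCs (0.61 ± 0.19, edgeR adjusted p = 6.17e-03), and the other (chr1:78196925-78197426) was not (0.24 ± 0.18, edgeR adjusted p = 0.228). A peak 3 kb upstream (chr1:78200118-78200619) was the only Pax3 peak called higher in mESCs on BGI, with 1.57, 1.74 and 2.44 CPM in MEFs and 4.85, 5.09 and 6.21 CPM in mESCs (1.42 ± 0.27, edgeR adjusted p = 1.02e-04).

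At Pax7, which marks muscle stem cells, all 4 BGI-set peaks and all 7 Illumina-set peaks were higher in mESCs. The intronic peak printed above (chr4:139767721-139768222) had 0.969, 0.596 and 1.19 CPM in MEFs and 10.7, 8.40 and 7.64 CPM in mESCs, a log2 fold change of 3.20 ± 0.28 (edgeR adjusted p = 8.81e-09). No BGI-set peak lay at a Pax7 start. On the Illumina set 2 did, and both were higher in mESCs, by 1.21 ± 0.20 (edgeR adjusted p = 1.68e-05) and 1.15 ± 0.27 (edgeR adjusted p = 7.37e-04). Among markers of muscle, promoters of Myod1 (1.70 ± 0.20) and Myf6 (0.91 ± 0.17) were higher in mESCs and that of Des was higher in MEFs (-1.52 ± 0.19), while Myog and Myf5 had no promoter peak. The summed CPM of the 3 measured muscle promoters ranged from 18.2 to 20.8 in MEFs and from 25.1 to 25.5 in mESCs, and its part in the Pax3 and Pax7 values was not tested.

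Pax6, the eye and forebrain regulator, had 7 of 8 peaks higher in mESCs and 1 higher in MEFs. Its promoter peak with the highest mean over both cell types (chr2:105675067-105675568) measured 7.25, 8.10 and 8.07 CPM in MEFs and 19.9, 23.7 and 20.3 CPM in mESCs (1.38 ± 0.14, edgeR adjusted p = 4.67e-08). The peak at an internal start, printed above (chr2:105677601-105678102), rose from 1.06, 0.746 and 1.94 CPM in MEFs to 13.7, 18.4 and 17.2 CPM in mESCs (3.65 ± 0.26, edgeR adjusted p = 5.27e-10). Peaks near the internal starts further into the gene (chr2:105680485-105680986 and chr2:105691171-105691672) gave 2.86 ± 0.22 and 3.59 ± 0.28. In MEFs the sample with the highest value at these 3 peaks was MEF 4, with 1.94, 3.78 and 1.59 CPM, still below every mESC sample.

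Between these peaks, a Pax6 promoter peak with a GC content of 70.5% (chr2:105676140-105676641) was higher in MEFs, with 14.1, 14.1 and 15.7 CPM against 10.8, 12.5 and 11.6 CPM in mESCs. The difference was small (-0.39 ± 0.14, edgeR adjusted p = 0.0127), and it was called on Illumina as well (-0.45 ± 0.12, edgeR adjusted p = 3.00e-03). An Illumina-set peak at the start of Paupar, a non-coding RNA next to Pax6, was higher in mESCs (1.83 ± 0.28, edgeR adjusted p = 9.16e-06). The call of the MEF-high peak was lost on BGI with the down-sampled depths as library sizes (-0.25, edgeR adjusted p = 0.114) and without mESC 1 (-0.35, edgeR adjusted p = 0.0501).

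Pax4, a factor of pancreatic beta cells, had no peak at its starts or in its body. A peak 1.3 kb upstream of the nearest start (chr6:28450414-28450915) had 2.22, 2.88 and 3.09 CPM in MEFs and 10.7, 13.1 and 12.5 CPM in mESCs (2.08 ± 0.20, edgeR adjusted p = 2.44e-08). The Pax4-window peak with the smallest p lay in an exon of the neighbour Fscn3, which encodes a testis fascin (chr6:28431214-28431715), and had 0.831, 1.04 and 0.747 CPM in MEFs and 7.06, 6.80 and 8.45 CPM in mESCs (3.01 ± 0.28, edgeR adjusted p = 1.38e-08). The 2 peaks at the shared promoter of Arf5 and Gcc1 were not called on BGI (-0.15 ± 0.15, edgeR adjusted p = 0.358, and -0.22 ± 0.16, edgeR adjusted p = 0.202). The second of these was higher in MEFs on Illumina (-0.48 ± 0.15, edgeR adjusted p = 6.27e-03).

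**Figure D3:**
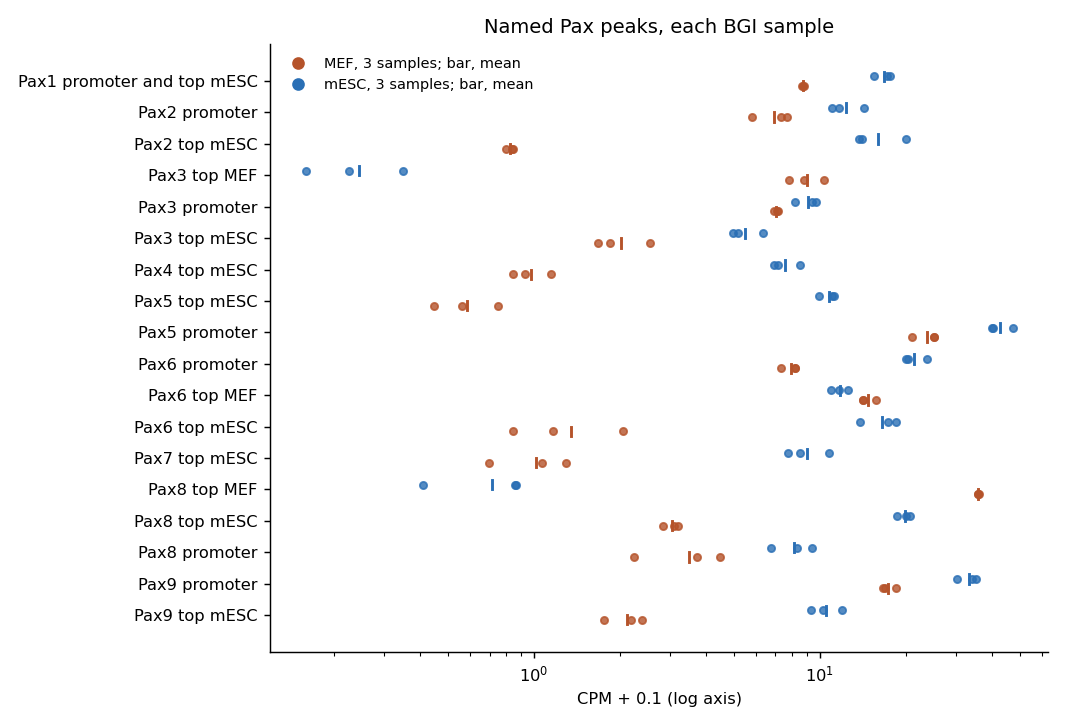
CPM + 0.1 on a log axis for the promoter peak of each gene with the highest mean over both cell types and for the peak with the smallest p in each direction among those called on both platforms (top mESC, top MEF), with the 3 BGI samples of each cell type as points and their mean as a bar. The groups are separate at each peak shown, and the Pax8 and Pax3 intronic peaks stand apart with 35.8 and 8.89 CPM in MEFs against 0.612 and 0.145 CPM in mESCs.

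Compared over protein-coding genes with a promoter peak on the BGI set, most Pax promoters were below the median. Each gene was taken at the promoter peak with the highest mean over both cell types. Genes without one, among them Pax4 and Pax7, were not ranked. The median over the 15,126 genes ranked was 23.4 CPM in MEFs and 21.8 CPM in mESCs. In MEFs 6 of the 7 Pax genes with such a peak lay below it, with Pax5 at 23.6 CPM as the exception, and in mESCs 5 did, with Pax5 at 42.5 CPM and Pax9 at 33.1 CPM above it. The percentile of each of the 7 was higher in mESCs than in MEFs, from 10.8 to 12.8 at Pax3 and from 12.8 to 48.5 at Pax6.

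The promoter pattern most like that of Pax6, the largest promoter fold change, was that of Mak, with a Euclidean distance of 0.40 in log2 CPM over 12 samples, followed by Ogdhl (0.47) and Tmem179 (0.51), where the median over 15,125 genes was 4.79. For Pax3, with the smallest promoter fold change, they were Calca (0.57), Esr2 (0.64) and Car8 (0.66), with a median of 5.77. The 12 samples are the same 6 libraries on 2 platforms.

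When reads were summed over all peaks of a window and tested beside all protein-coding genes, the 9 Pax loci were all called on BGI, where 78.8% of 18,346 loci were, with 7 higher in mESCs (38.9% of all loci) and 2 higher in MEFs (39.9% of all loci). The log2 fold changes were 0.62 ± 0.09 for Pax1, 1.34 ± 0.06 for Pax2, -0.39 ± 0.09 for Pax3, 0.66 ± 0.09 for Pax4, 1.11 ± 0.06 for Pax5, 1.504 ± 0.083 for Pax6, 1.86 ± 0.11 for Pax7, -0.26 ± 0.07 for Pax8 and 0.84 ± 0.07 for Pax9. On Illumina 8 of 9 were called (78.9% of 18,308 loci), with 7 higher in mESCs (39.1% of all loci), Pax8 alone higher in MEFs (-0.63 ± 0.08, a direction held by 39.8% of all loci) and Pax3 without a call (-0.019 ± 0.068, edgeR adjusted p = 0.805). With windows of 50 kb the Pax4 sum was not called on either platform and its sign turned. The log2 fold changes were then -0.089 and -0.061 for BGI and Illumina, with edgeR adjusted p = 0.0903 and 0.246. The Pax3 and Pax8 sums rested on their intronic peaks. The Pax8 intronic peak held 59.4% of the reads of its locus in MEFs, and without it the other 5 peaks summed to 24.4 ± 1.43 CPM in MEFs and 52.2 ± 0.903 CPM in mESCs (SD, n = 3). The Pax3 intronic peak held 24.1% of its locus, and the other 4 peaks summed to 28.0 ± 1.52 CPM in MEFs and 29.5 ± 1.01 CPM in mESCs (SD, n = 3).

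Per kb of peak, the order of the loci also differed between the cell types. The kb are those of a set joined from both cell types, in which 40 of the 61 Pax peaks were on the mESC list alone. This order is therefore not free of how the peaks were selected. In BGI samples of MEFs Pax8 was first at 20.005 ± 0.544 CPM per kb, followed by Pax3 at 14.7 ± 1.11, Pax1 at 13.0 ± 0.507, Pax9 at 12.2 ± 0.273, Pax4 at 11.8 ± 1.196, Pax5 at 10.2 ± 0.515, Pax6 at 9.46 ± 1.18, Pax2 at 8.06 ± 0.0740 and Pax7 at 5.58 ± 0.464 (SD, n = 3). Samples of neighbours in this order overlapped for Pax9 and Pax4 and for Pax5 and Pax6. In mESCs Pax6 was first at 28.2 ± 2.996 CPM per kb and did not overlap with Pax5 at 23.1 ± 0.690. Pax5, Pax9 (23.0 ± 1.21), Pax2 (21.4 ± 0.549), Pax7 (21.3 ± 1.55) and Pax1 (21.1 ± 0.713) each overlapped with the next, and Pax4 (19.5 ± 0.491), Pax8 (17.5 ± 0.221) and Pax3 (11.8 ± 0.373) followed without overlap. Illumina samples also put Pax8 first in MEFs (22.8 ± 0.133 CPM per kb) and Pax6 first in mESCs (25.9 ± 1.49 CPM per kb), the latter overlapping with Pax2.

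The genes that work with Pax factors were read at their highest BGI-set promoter peak. Of all 29,802 promoter peaks of the set, counting every peak of a gene, 72.3% were called. By direction, 9,319 (31.3%) of these were higher in mESCs and 12,227 higher in MEFs, and the median log2 fold change was -0.13. Of the Pax-Six-Eya-Dach network of 12 genes, which acts in eye, ear and muscle development, 11 had a promoter peak, and 4 were higher in mESCs and 2 in MEFs. Six6, a retinal and pituitary factor, differed most, with 4.66 ± 0.711 CPM in MEFs and 37.6 ± 6.54 CPM in mESCs (SD, n = 3), a log2 fold change of 2.95 ± 0.16, and Six5 was higher in MEFs (-0.50 ± 0.09). Of 7 protein partners and corepressors 1 was higher in mESCs (Tle4, 0.29 ± 0.09) and 2 in MEFs (Pagr1a, -0.34 ± 0.10, and Tle3, -0.27 ± 0.10), and Paxip1 and Paxbp1 were not called (-0.18 ± 0.10 and -0.0092 ± 0.087). Of 20 known target genes 14 had a promoter peak, with 8 higher in mESCs, 3 higher in MEFs and a median log2 fold change of 0.68. The neural crest factor Foxd3 (2.09 ± 0.20) and the myogenic factor Myod1 (1.70 ± 0.20) were higher in mESCs, whereas the melanocyte factor Mitf (-0.71 ± 0.10) was higher in MEFs. These counts describe accessibility of promoters in cells whose Pax protein levels were not measured here.

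The cell type markers fixed for other lineages gave the following at their promoters. Of all 29,802 promoter peaks of the BGI set, 72.3% were called, with 9,319 (31.3%) higher in mESCs and 12,227 higher in MEFs. Of 5 neural and neural crest markers 4 had a promoter peak and 3 were higher in mESCs, with summed levels of 42.4 to 42.8 CPM in MEFs and 104.8 to 117.9 CPM in mESCs, and Sox10 had none. Of 3 measured endothelial markers edgeR called 0, also at an unadjusted p under 0.05, with sums of 28.7 to 30.9 CPM and 27.6 to 32.2 CPM. Of 3 measured primitive endoderm and trophoblast markers 2 were higher in mESCs and 1, Gata6, in MEFs, with sums of 42.7 to 49.8 CPM and 60.2 to 61.3 CPM. The part of other cell types in the Pax values was not tested.

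The fold changes of the cell types were similar on both platforms. Of the 61 BGI peaks, 54 shared at least 50% of their width with an Illumina peak of the same locus. The other 7 BGI peaks and 11 of the Illumina peaks had no such partner. At 44 of the 54 matched peaks (81.5%) both platforms gave a call, against 81.5% of all 79,625 BGI peaks with such a partner. Of these calls 40 were higher in mESCs (74.1% of the matched Pax peaks, against 40.2% of all matched peaks) and 4 higher in MEFs (7.41% against 41.4%). None was called in opposite directions, as was none of all matched peaks. The call was on BGI alone at 1 (2.33% of all matched peaks), on Illumina alone at 3 (3.09%) and on neither at 6 (13%). The log2 fold changes differed by a median of 0.15, as over all matched peaks (0.15), and by at most 0.55, at the Pax8 intronic peak. The interaction of cell type and platform was called by edgeR at 0 of the 61 peaks, with 1 peak (1.64%) at an unadjusted p under 0.05, as were 2.61% of all 91,354 peaks, of which 0 were called. With library as a block it was called at 0, where 353 of 91,354 peaks were called. At an unadjusted p under 0.05 stood 9 Pax peaks (14.8%), against 13.2% of all peaks, and the smallest adjusted p was 0.0826, at the Pax9 promoter.

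**Figure D4:**
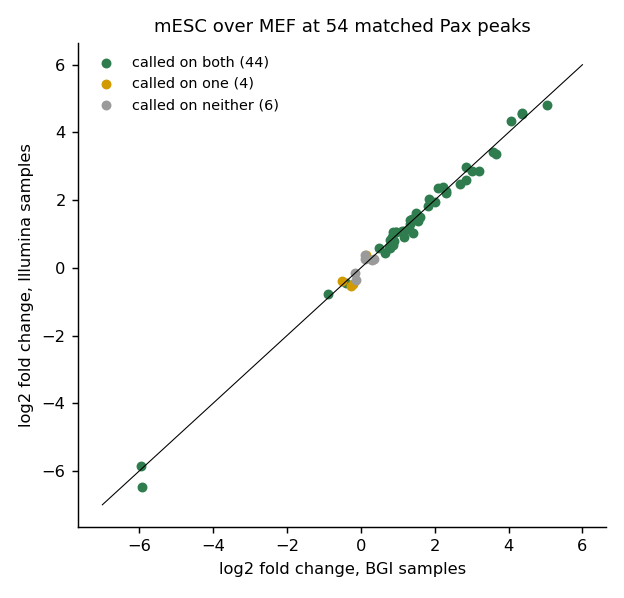
Log2 fold change of mESCs over MEFs in BGI samples (horizontal) and Illumina samples (vertical) at the 54 matched Pax peaks, coloured by how many platforms called them. The points follow the line of equal values, with 44 called on both, and the largest gap is 0.55.

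Within a cell type, BGI and Illumina were compared on the peak sets of both platforms, which held 24 Pax peaks in MEFs and 66 in mESCs. Without pairing, 1 of 24 was called in MEFs (4.06% of all peaks) and 2 of 66 in mESCs (3.23% of all peaks). With library as a block, 8 of 24 were called in MEFs (29.2% of all peaks), 6 of them lower on BGI, and 17 of 66 in mESCs (21.3% of all peaks), 13 of them lower on BGI. All but 1 of the calls lower on BGI lay at peaks with a GC content of at least 60%. Among Pax peaks of this content 6 of 11 in MEFs were lower on BGI, where 59.2% of all such peaks were, and 12 of 22 in mESCs, where 57.4% were, so these shares were near the background. Their median log2 ratios were -0.27 and -0.25, against -0.23 and -0.23 for all such peaks. The exception was a Pax6 peak of mESCs with a GC content of 59.2% (-0.19, edgeR adjusted p = 0.0324). With a GC offset added to the block, 4 of 24 were called in MEFs (13.2% of all peaks) and 2 of 66 in mESCs (8.83% of all peaks). The 4 in MEFs were all lower on BGI, and 3 of them, at promoters of Pax2, of Gm12462 and of the neighbour Psd4, were not called with the block alone.

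The peak called in MEFs without pairing lay 20 kb upstream of Pax3 (chr1:78216739-78217254, GC content 74.8%). It held 7.18, 7.04 and 6.17 CPM on BGI and 10.4, 11.8 and 11.6 CPM on Illumina, a log2 ratio of BGI over Illumina of -0.75 (edgeR adjusted p = 0.0237). With block and GC offset it was -0.27 and was not called (edgeR adjusted p = 0.0801). The Pax8 exonic peak described above (chr2:24460671-24461190 on this set) went the other way in mESCs, with 18.9, 20.7 and 20.4 CPM on BGI and 11.7, 13.6 and 9.66 CPM on Illumina (0.73, edgeR adjusted p = 0.0119), at a GC content of 54.6%. It was higher on BGI in 3 of 3 libraries, also called with library block and GC offset (0.67). The other peak called in mESCs without pairing was the GC-rich one upstream of Pax3 (-0.52, edgeR adjusted p = 0.0462), which with block and GC offset was at -0.087 (edgeR adjusted p = 0.521). The MEF-high intronic peaks of Pax8 and Pax3 were called slightly higher on BGI with the block (0.18 ± 0.06 and 0.31 ± 0.11, edgeR adjusted p = 0.0166 and 0.0220). With the GC offset neither was called (-0.0032 and 0.14, edgeR adjusted p = 0.981 and 0.466).

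**Figure D5:**
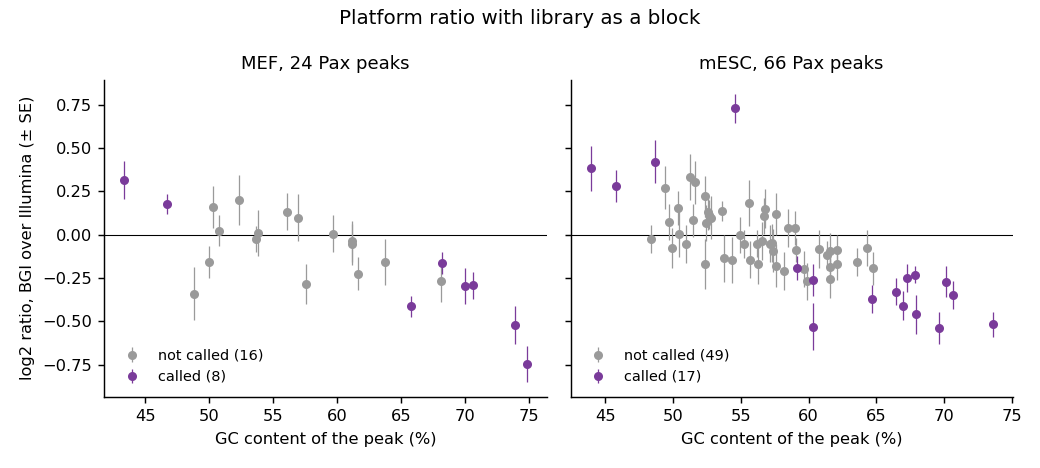
Log2 ratio of BGI over Illumina (with SE, library as a block) against the GC content in percent of the Pax peaks of MEFs (left) and mESCs (right), with called peaks coloured. Called peaks with a GC content of at least 60% lie below 0, 6 in MEFs and 12 in mESCs, and the exonic Pax8 peak of mESCs stands at 0.73.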

How the data were processed

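Per the study's methods, the authors aligned reads with Bowtie2 to mm10 (GRCm38), removed duplicates and mitochondrial reads, down-sampled MEF samples to 60 M and mESC samples to 45 M reads, and called peaks per sample with MACS2. The deposited peak calls hold, per summit, a fold enrichment (a ratio) and the −log10 of p and q. The deposited tables hold raw counts per peak, with no normalization, and no per-sample column was left out. Columns without a platform name were read as Illumina: in each library the column ratio correlated across peaks with the ratio of the authors' BGI to Illumina fold enrichment (Spearman rho 0.756 to 0.799, a description).

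Counts were tested with edgeR 4.0.16 (quasi-likelihood F test, two-sided, TMM, filterByExpr, Benjamini-Hochberg over all features of the table), and the SE is the log2 fold change divided by the square root of F. CPM are counts scaled to the total reads of a sample in the peak set. Library numbers pair the platforms, because the same libraries were read on both: after removal of group means, same-numbered MEF samples correlated at 0.617 to 0.837 and same-numbered mESC samples at 0.515 to 0.725, against -0.675 to 0.289 and -0.511 to -0.115 for different numbers. The 3 deviations of a group sum to 0, so positive same-numbered values bring negative different-numbered ones on average. The gap between them is therefore partly built in. No samples held identical counts. Depth limits the precision at peaks with few reads. Alternatives were RLE scaling, library sizes at the down-sampled depth, no filter, DESeq2 1.42.0, other windows, a block and samples left out.

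Named were, per gene, the own-promoter peak within 1 kb of a TSS with the highest mean over both cell types, the peak with the smallest p in each direction among those called on both platforms, and promoter peaks of neighbours. Others were chosen after their values were seen. The members, lists, motifs and rules were chosen with earlier results of these data known. Sequences were read from GRCm38. Amino acid sequences were not used here. The promoters of the blood marker list are not reported here.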

Additional observations from a re-analysis of the deposited data

How the results depend on the processing

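At the Pax peaks, the number of calls between the cell types stayed within 1.5 times under each alternative, except that gene bodies alone held 36 called peaks on Illumina against 56, from fewer peaks (40 against 65). On BGI the count of peaks higher in MEFs was 5, and it was 3 with library sizes at the down-sampled depth and 3 without mESC 1. That scaling moved the median log2 fold change of all BGI peaks from -0.078 to 0.065 and that of all Illumina peaks from -0.033 to 0.094, and it turned the Gm12462 promoter peak in Pax5 to 0.0023. With windows of 50 kb, 84 BGI peaks held 53 higher in mESCs and 15 higher in MEFs, and the Pax4 locus sum turned to -0.089 on BGI and -0.061 on Illumina, neither of them called. The uncalled Pax3 locus sum on Illumina (-0.019) turned to 0.0057 without MEF 2, 0.0058 without mESC 1 and 0.074 over the gene body, within a range of -0.038 to 0.0058 over the libraries left out. The cause was not tested. The paired platform counts, with library as a block, were 8 called in MEFs and 17 in mESCs, against 1 and 2 without it. With block and GC offset 4 and 2 were called, with DESeq2 2 in MEFs and with RLE scaling 1 in mESCs. Of all peaks tested, DESeq2 called 5,914 of 46,292 in MEFs, and RLE scaling gave 1,563 of 67,063 in mESCs. Leaving out a library gave 0 to 2 calls in MEFs (0 without MEF 1 or MEF 2) and 0 to 1 in mESCs (0 without mESC 1 or mESC 5). Of all 61,891 MEF peaks, 0 were called without MEF 1, 0 without MEF 2 and 6,132 without MEF 4. Of all 67,063 mESC peaks, 1 was called without mESC 1, 0 without mESC 5 and 1,373 without mESC 3. With the block, an alternative added after seeing the data, leaving out a library gave 5 to 6 calls in MEFs and 12 to 16 in mESCs. Of all peaks, 11,023 to 15,222 of 61,891 were then called in MEFs and 9,118 to 11,176 of 67,063 in mESCs. The interaction was called by edgeR at 0 Pax peaks in each of its alternatives, with 0 to 9 peaks at an unadjusted p under 0.05. No paired analysis was possible for the cell types because MEF and mESC libraries share only the number 1 and come from different cells.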
